A study of Mus musculus with 12 samples.

Results

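The miR-34 and miR-449 family comprised 6 microRNAs (miRNAs) of the mouse, miR-34a, miR-34b, miR-34c, miR-449a, miR-449b and miR-449c, out of 1087 annotated miRNA names. A sequence tag was assigned to a member when the whole tag matched the annotated hairpin of that miRNA without a mismatch. The 5′ arm (5p) and the 3′ arm (3p) of each hairpin were counted separately. Of the 12 arms of the family, 9 had at least 1 read, against 1064 arms with a read among all miRNAs. Together they held 276289 counts, or 0.920% of the 30022027 counts that matched miRNA hairpins exactly. The hippocampal libraries of the series were made from individual adult male C57BL/6NCrl mice with no transgene or engineered allele. Mice were untreated (NT), or were taken 0.5, 1, 3, 6 or 24 h after electroconvulsive shock (ECS), a current that depolarizes neurons throughout the brain. Each of these 6 groups held 2 libraries, 1 from each of 2 time courses, so that for example 24h-2 is the library at 24 h of the second time course. ECS was given by the same device settings at every time point, and no sham-treated group was among the samples analysed here. Whole hippocampus was used, so fewer cells of a type and fewer copies of a small RNA per cell cannot be told apart.

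The miRNAs of this family share the seed, the bases 2 to 8 that pair with target mRNAs, and are therefore expected to recognise overlapping sets of mRNAs. miR-34a and the miR-34b/miR-34c pair are known as direct transcriptional targets of the tumor suppressor p53 and as repressors of cell cycle genes. The miR-34b/miR-34c pair and the miR-449 cluster are known from multiciliated epithelia, where they act in the formation of cilia, and miR-34c has been linked to memory in the hippocampus. In most tissues the 5′ arm is the one loaded into the silencing complex and the 3′ arm is the passenger.

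The members come from 3 loci. In genome build GRCm38, Mir34a lies on chromosome 4 (chr4:150068454-150068555, plus strand), where the annotation also places an exon of Gm37795. Mir34c (chr9:51103034-51103110) and Mir34b (chr9:51103562-51103645) lie on the minus strand of chromosome 9, 451 bases apart, within an intron of Btg4 on the opposite strand. Mir449c (chr13:113035983-113036091), Mir449b (chr13:113037419-113037498) and Mir449a (chr13:113037534-113037624) lie on the plus strand of chromosome 13 within intronic sequence of Cdc20b. Cdc20b is transcribed from the same strand.

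The 5′ arms are shown first because the counts of the family depend on how far these sequences can be told apart. Each is the tag as deposited, written 5′ to 3′ as DNA with the seed in capitals. For miR-34a, miR-34b and miR-34c the most frequent tag is given together with the tags of 23 nt of miR-34b and miR-34c, and for miR-449a and miR-449b, whose leading tags were equally frequent, the longer one is given.
miR-34a 5p, 20 nt: tGGCAGTGtcttagctggtt
miR-34b 5p, 20 nt: aGGCAGTGtaattagctgat
miR-34b 5p, 23 nt: aGGCAGTGtaattagctgattgt
miR-34c 5p, 20 nt: aGGCAGTGtagttagctgat
miR-34c 5p, 23 nt: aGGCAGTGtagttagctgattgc
miR-449a 5p, 22 nt: tGGCAGTGtattgttagctggt
miR-449b 5p, 20 nt: aGGCAGTGttgttagctggc
No tag of miR-449c was found, and its 5′ arm is shown from the RefSeq annotation of GRCm38.p6, as RNA.
mmu-miR-449c-5p: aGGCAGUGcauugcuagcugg
Of the 1679 mature names in that annotation, 4 carried the seed GGCAGUG, namely miR-34a-5p, miR-34b-5p, miR-449a-5p and miR-449c-5p. The tags of miR-34c 5p and miR-449b 5p carried the same 7 bases. Counted from 1 at the 5′ end of miR-34c, miR-34b differed from miR-34c by G11A and C23T, so tags shorter than 23 nt differed at a single base. Over the first 18 bases miR-449b differed from miR-34c by A10T alone.

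miR-34c 5p made up almost the entire family. It had 274507 counts over the 12 libraries, 99.4% of the family's counts, and between 98.6% and 99.5% in any library. The other 5p arms followed with 1323 counts for miR-34b, 135 for miR-34a, 22 for miR-449a and 2 for miR-449b. Of the 3p arms, miR-34b had 227 counts, miR-34a 67, miR-34c 5 and miR-449a 1. No exact match was found for miR-449b 3p or for either arm of miR-449c. A count of 0 among all miRNA counts allows a share of up to 9.99e-06% (3 counts of the total, counting error only). Each tag is 1 cloned small RNA of similar length, so these counts were not divided by length, and differences in cloning efficiency between sequences were not measured.

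**Figure D1:**
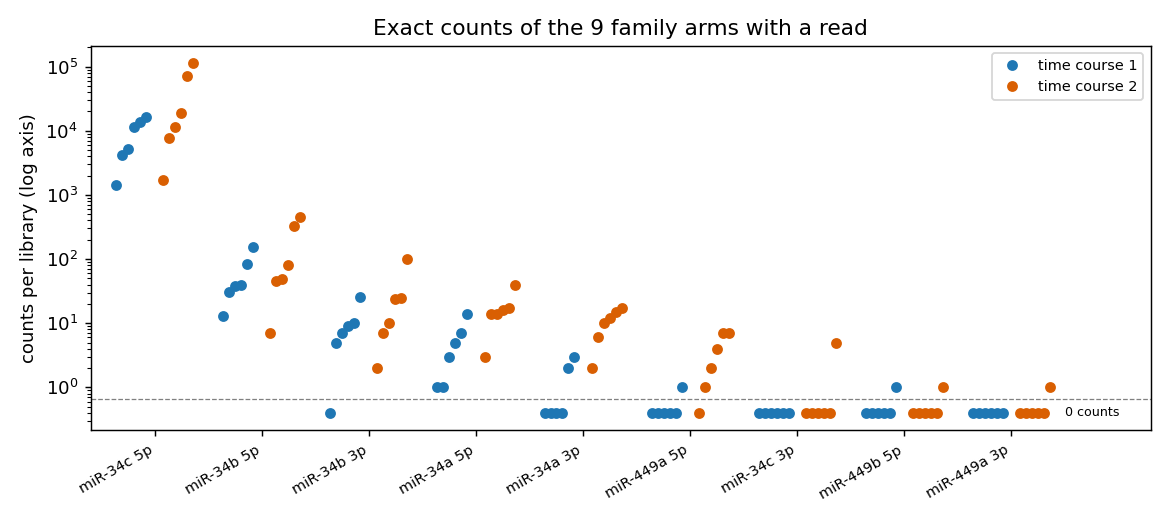
Counts of the 9 family arms with a read, on a log axis, with 1 point per library in ascending order within each time course (blue, first; orange, second) and libraries at 0 drawn under the dashed line. miR-34c 5p lies between 1433 and 112216 counts per library, while miR-449a 5p does not pass 7 counts.

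Neuronal miRNAs were present in all libraries. The neuron-enriched miR-124 had a median share of 3.81% of the miRNA counts and miR-128 of 6.34%, while miR-9 had 1.53%. Among the vascular markers miR-143 was at a median of 3.94%, miR-126 at 0.0120% and miR-145 at 0.0034%, and miR-144, a red blood cell miRNA, at 0.0136%. Between 439336 and 4282006 counts per library matched miRNA hairpins exactly, out of 1897490 to 7657222 accepted reads. The libraries of the second time course were deeper in miRNA counts, with 1321437 to 4282006 against 439336 to 2219779 in the first. Between the time courses, 151 of 469 arms (32.2%) passed an adjusted p of 0.05 in edgeR, with the time point as covariate (quasi-likelihood test). The number was 92 when 1h-1 was left out. Of the 151 arms, 93 (19.8% of those tested) were higher in the second time course and 58 (12.4%) lower. With scaling to the total miRNA count in place of TMM factors, 162 arms (34.5%) were called and the split was 49 (10.4%) higher and 113 (24.1%) lower. TMM values lay a median of 0.61 log2 units above the total-scaled ones.

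Within the miRNA counts, miR-34c 5p varied 22.3-fold between libraries. In the first time course its share was 0.391% in NT-1, 0.769% in 0.5h-1, 0.379% in 1h-1, 0.759% in 3h-1, 0.326% in 6h-1 and 0.733% in 24h-1. The second time course had 0.179% in NT-2, 2.88% in 0.5h-2, 0.474% in 1h-2, 0.275% in 3h-2, 0.129% in 6h-2 and 1.73% in 24h-2. The libraries 0.5h-2 and 24h-2 were the highest and held 183186 of the 274507 counts, or 66.7%. In 0.5h-2 miR-34c 5p ranked 7 among all arms, and in NT-2 it ranked 50. Counting error was far smaller than these differences, as the Wilson 95% interval was 0.123% to 0.135% in 6h-2, the lowest library, and 2.86% to 2.90% in 0.5h-2.

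Ordered by the mean of the 2 libraries, the share of miR-34c 5p was highest at 0.5 h (1.82% ± 1.49, SD, n = 2). It was followed by 24 h (1.23% ± 0.703), 3 h (0.517% ± 0.342), 1 h (0.427% ± 0.0674), the untreated mice (0.285% ± 0.150) and 6 h (0.228% ± 0.139). Every neighbouring pair in this order overlapped. The pair of libraries at 0.5 h and the pair at 24 h both lay above the untreated pair without overlap, while those at 1, 3 and 6 h overlapped it.

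Relative to the untreated library of its own time course, miR-34c 5p was 1.97-fold at 0.5 h in the first time course and 16.1-fold in the second. At 24 h it was 1.87-fold and 9.65-fold. The ratios were 0.969 and 2.65 for the libraries of 1 h. Those of 3 h had 1.94 and 1.54, while 0.834 and 0.722 were found 6 h after ECS. With the labels' numbering of the untreated libraries, the direction was thus shared by both time courses at 0.5, 3, 6 and 24 h, but the size at 0.5 and 24 h was several times larger in the second. A listing of library composition in the study gives the untreated pair in the other order, while its library totals have the order of the labels, which was used here. Exact miRNA counts made up 29.1% of the accepted reads in NT-1, and 10.1% to 32.7% in the other libraries of the first time course. They made up 56.5% in NT-2, and 50.9% to 69.6% in the others of the second. Each untreated library thus lay with the time course of its label. With the untreated libraries exchanged (an alternative added after seeing the data), the ratios of miR-34c 5p were 4.30 and 7.37 at 0.5 h, and 4.09 and 4.42 at 24 h. The libraries of 1 h then had 2.12 and 1.21, those of 3 h 4.24 and 0.704, and those of 6 h 1.82 and 0.330. Ratios above 1 at 0.5 and 24 h were fixed in either order, since both libraries there lay above both untreated ones. At 1, 3 and 6 h the exchange changed whether the time courses shared a direction. The exchanged order is not the one in which the untreated libraries resemble their time course.

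**Figure D2:**
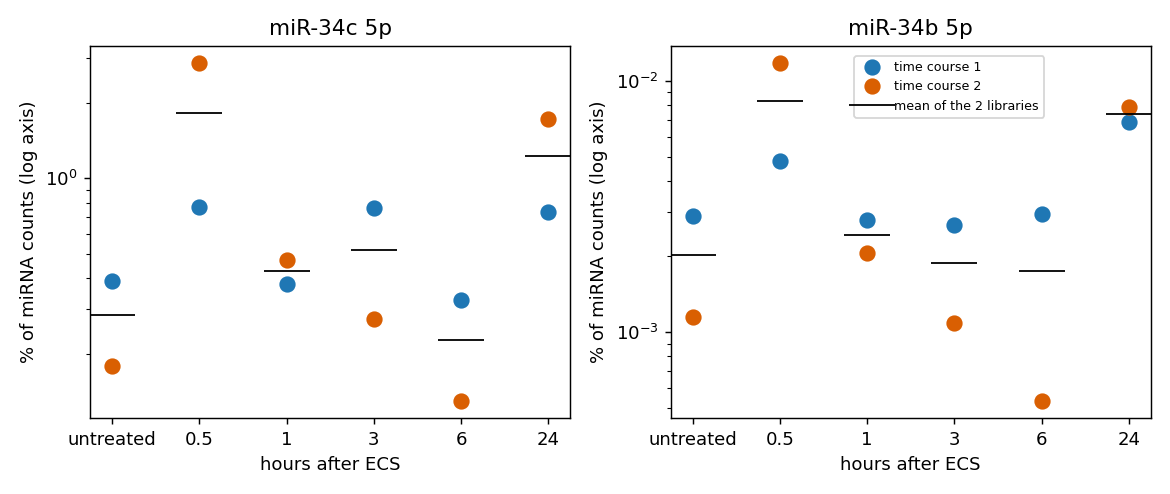
Share of the miRNA counts (log axis) of miR-34c 5p (left) and miR-34b 5p (right) in untreated mice and at each time after ECS, with 1 point per library (blue, first time course; orange, second) and a bar at the mean of the 2. The libraries at 0.5 and 24 h lie above both untreated libraries in each panel, and 0.5h-2 is the highest of all 12.

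miR-34b 5p, from the hairpin next to miR-34c, was far less abundant. Its share was 0.00290% in NT-1, 0.00479% in 0.5h-1, 0.00279% in 1h-1, 0.00266% in 3h-1, 0.00296% in 6h-1 and 0.00685% in 24h-1. The libraries of the second time course had 0.00114%, 0.0118%, 0.00206%, 0.00109%, 0.00053% and 0.00786% in the same sequence of times. As with miR-34c, both libraries at 0.5 h and both at 24 h lay above the untreated pair, and the other time points overlapped it. The ratios to the own untreated library were 1.65 and 10.3 at 0.5 h and 2.36 and 6.87 at 24 h. Of the 1323 counts of miR-34b 5p, only 161 were its 23 nt tag, which differs from miR-34c at 2 bases. None of the 161 lay in NT-1, NT-2, 0.5h-1 or 24h-1. How far single-base variants of miR-34c make up this parallel was not tested.

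Of the 5 family arms with enough counts to be tested, miR-34b 5p and miR-34c 5p lay above the untreated pair without overlap at 0.5 h, where 14.1% of all 469 tested arms did so. The same 2 arms did so at 24 h, where the background was 6.61%. No member did so 1 h (background 12.6%), 3 h (4.05%) or 6 h (6.18%) after ECS. miR-34a 5p lay below the untreated pair in the libraries of 3 h (background 17.5%), 6 h (14.1%) and 24 h (13.4%). miR-34b 3p lay below it in those of 6 h. No member lay below it 0.5 h (9.81%) or 1 h (2.56%) after ECS. Relative to NT-2, the lower untreated library, these decreases lay within counting error. For miR-34a 5p the Wilson intervals of all these libraries overlapped that of NT-2 (16 counts, 0.000230% to 0.000607%). In 24h-2, for example, it was 0.000203% to 0.000572% (14 counts). For miR-34b 3p, 6h-2 had 0.000151% (2 counts) and NT-2 0.000163% (7 counts). The 0 in 6h-1 allows up to 0.000683%, above both untreated libraries.

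The changes after ECS did not pass the threshold in a fit over all 469 arms and all 12 libraries. The quasi-likelihood test of edgeR called 0 of 469 arms (0.0%) after adjustment, whichever of the 5 times was compared, and so 0 of the 5 family arms. Before adjustment, 9 arms (1.92%) had a p under 0.05 when untreated mice were compared with 0.5 h, 2 (0.426%) with 1 h, 10 (2.13%) with 3 h, 9 (1.92%) with 6 h and 7 (1.49%) with 24 h. The family held 2 of the 9 at 0.5 h and 2 of the 7 at 24 h, again miR-34b 5p and miR-34c 5p, and none at the other times. These 2 arms cannot be read as independent, since the counts of miR-34b 5p may hold variants of miR-34c. DESeq2 called 1 arm (0.213%) at 0.5 h and 2 (0.426%) at 3 h, none of them in the family, and no arm (0.0%) at the other times.

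For miR-34c 5p the fitted log2 fold change at 0.5 h was 3.00 (SE 1.10, adjusted p = 0.988, edgeR), which ranked 3 of 469 by p. At 24 h it was 2.80 (SE 1.09, adjusted p = 0.989, edgeR) and ranked 2. The values at 1, 3 and 6 h were 0.57, 1.52 and −0.08, with SE between 1.02 and 1.04. The value at 1 h was 0.07 without 1h-2 and 1.04 without 1h-1, and that at 3 h was 0.50 without 3h-1 and 0.86 with scaling to the total miRNA count. That scaling gave 2.68 at 0.5 h and 2.11 at 24 h. In the fit with TMM factors the median over all 469 arms was 0.15 at 0.5 h and 0.23 at 24 h, below the changes of miR-34c 5p. The spread of the changes over the arms was not examined. With the time course as a block the adjusted p was 0.699 at 0.5 h and 0.672 at 24 h. Without 0.5h-2 the change at 0.5 h was 1.57, and without 24h-2 the change at 24 h was 1.33, both on the log2 scale. The lone remaining library was then taken to vary like those of the other groups.

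For miR-34b 5p the fitted log2 fold change was 2.36 at 0.5 h (SE 1.00, adjusted p = 0.988, edgeR) and 2.50 at 24 h (SE 1.00, adjusted p = 0.989, edgeR). It ranked 5 and 3 of 469 by p. Without 0.5h-2 the change at 0.5 h was 1.41. At 1, 3 and 6 h the values were 0.17, 0.58 and −0.13. With scaling to the total miRNA count the changes were 2.05 at 0.5 h and 1.87 at 24 h.

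**Figure D3:**
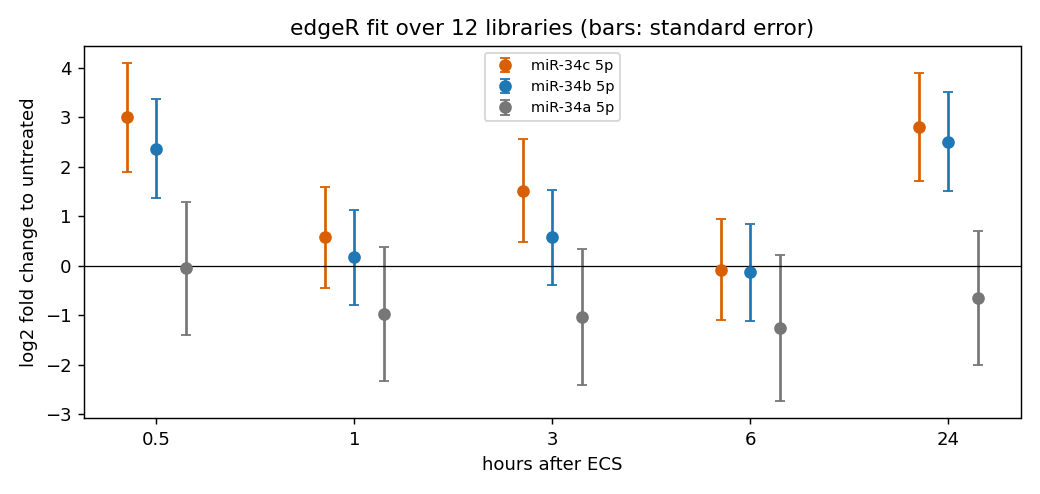
Log2 fold change against untreated at each time after ECS for the 5p arms of miR-34c (orange), miR-34b (blue) and miR-34a (grey), from the edgeR fit over 12 libraries, with the standard error as bars. miR-34c 5p reaches 3.00 at 0.5 h and 2.80 at 24 h, and no value has an adjusted p under 0.05.

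miR-34a, the member most often studied as a p53 target, was rare in these libraries. Its 5p arm had 1 to 40 counts per library, 14 in NT-1, 3 in 0.5h-1, 5 in 1h-1, 1 in 3h-1, 1 in 6h-1 and 7 in 24h-1. In the second time course it had 16 in NT-2, 40 in 0.5h-2, 17 in 1h-2, 14 in 3h-2, 3 in 6h-2 and 14 in 24h-2. As a share of the miRNA counts NT-1 was the highest library at 0.0013% and 0.5h-2 the next at 0.0010%. The fitted log2 changes after ECS ran from −1.26 at 6 h to −0.05 at 0.5 h, with SE between 1.34 and 1.48, and no time had an adjusted p under 0.05 (edgeR).

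The 3p arm of miR-34a had 5 counts in the first time course, 3 in 1h-1 and 2 in 3h-1, and none in the other 4 libraries. In the second it had 62 counts, between 2 in 1h-2 and 17 in 0.5h-2, with a read in all 6 libraries. The fitted log2 difference was 2.77 (SE 1.10, adjusted p = 0.0662, edgeR), and the arm was called by DESeq2 (3.32, adjusted p = 0.0139), which called 47.3% of the arms between the time courses. The 3p arm made up 13.9% of the miR-34a counts in the first time course (Wilson 95% interval 6.08% to 28.7%) and 37.3% in the second (30.4% to 44.9%). It passed in 5 other alternatives and not in the other 12, where the difference lay between 2.25 and 3.26. With scaling to the total miRNA count it was 2.25 (adjusted p = 0.132, edgeR). This was the family's only arm to be called between the time courses by either tool. The 5p arm of miR-34a differed by 1.07 (SE 0.70, adjusted p = 0.247, edgeR).

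No other tested arm of the family was called between the time courses by edgeR or DESeq2. For miR-34c 5p the fitted log2 difference, second against first, was 0.55 (SE 0.53, adjusted p = 0.425, edgeR), and it was −0.10 with scaling to the total count. For miR-34b 3p it was 0.30 (SE 0.79), and −0.26 with that scaling. For miR-34b 5p it was close to 0 (SE 0.41), and −0.63 with that scaling. The miR-449 arms were not tested. The family as a whole took 0.565% ± 0.215 (SD, n = 6) of the miRNA counts over the 6 libraries of time course 1. Over those of time course 2 it took 0.9499% ± 1.13 (SD, n = 6), and its share was the higher one for 3 of 6 time points (two-sided p = 0.469, exact permutation over the 64 exchanges within time points).

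The 3p arm of miR-34b was found in 11 of 12 libraries. It had 7 counts in NT-1, 10 in 0.5h-1, 26 in 1h-1, 9 in 3h-1, 0 in 6h-1 and 5 in 24h-1, and then 7 in NT-2, 24 in 0.5h-2, 25 in 1h-2, 10 in 3h-2, 2 in 6h-2 and 102 in 24h-2. The library 24h-2 thus held the most counts, but as a share of the miRNA counts it had 0.00248% against 0.00191% in 1h-1, and in 6h-1 a count of 0 allows a share of up to 0.000683%. The fitted log2 change at 24 h was 2.61 (SE 1.42, adjusted p = 0.989, edgeR), 1.80 with scaling to the total miRNA count, and −0.79 (SE 1.86) without 24h-2. The time courses went in opposite directions, from 0.000656% in NT-1 to 0.000225% in 24h-1 and from 0.000163% in NT-2 to 0.00248% in 24h-2.

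The neighbouring hairpins differed widely in the share of their 3p arm. For miR-34b, 14.6% of the counts pooled over libraries came from the 3p arm (Wilson 95% interval 13.0% to 16.5%), 13.7% in the first time course and 14.98% in the second. Single libraries differed beyond counting error, with 3.18% in 24h-1 (1.37% to 7.24%) and 40.6% in 1h-1 (29.5% to 52.9%). The library 24h-2 alone held 102 of the 227 counts of the 3p arm. Any variants of miR-34c counted as miR-34b 5p would lower this share. For miR-34c it was 5 of 274512 counts, or 0.00182% (0.000778% to 0.00426%), all of them in 24h-2. For miR-34a it was 33.2% (27.0% to 39.9%). The count of miR-34b 3p, 227, was therefore above that of miR-34c 3p, although miR-34c 5p was far more abundant than miR-34b 5p.

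The miR-449 cluster was at the limit of detection. miR-449a 5p had 1 count in NT-1 and none in the other 5 libraries of the first time course. In the second it had none in NT-2, 2 in 0.5h-2, 7 in 1h-2, 4 in 3h-2, 1 in 6h-2 and 7 in 24h-2. miR-449b 5p had 1 count in 3h-1 and 1 in 24h-2, and the single count of miR-449a 3p was also in 24h-2, the one library with a read on all 9 detected arms. None of the arms of miR-449 had enough counts to be tested, and 21 of the 22 counts of miR-449a 5p lay in the deeper time course.

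How the 5p tags began and ended was then examined among the tags that matched over their full length. Tags with a changed or added base at the 3′ end were thus left out. miR-34c 5p began at the same base in 99.95% of its counts, and miR-34a 5p in 98.5%. miR-34b 5p did so in 92.4%, and 89 of its 1323 counts (6.73%) began 1 base upstream, against 71 of 274507 counts (0.0259%) for miR-34c 5p. Such a shift changes the seed. The 3p arm of miR-34b had 2 starts of similar use, and these are shown because they have different seeds.
miR-34b 3p, downstream start, 21 nt: aTCACTAActccactgccatc
miR-34b 3p, upstream start, 22 nt: aATCACTAactccactgccatc
The downstream start had 120 of 227 counts (52.9%) and the upstream start 106 (46.7%). RefSeq gives the upstream form for mmu-miR-34b-3p and, with the same seed, for mmu-miR-34c-3p. Of the 5 counts of miR-34c 3p, 3 had the downstream start and 2 the upstream one.

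The 3′ ends of miR-34c 5p were heterogeneous. Over all libraries, 47.3% of the counts had 20 nt, 23.1% had 23 nt, 18.8% had 21 nt and 7.93% had 22 nt. In the first time course the leading length differed between libraries. Tags of 19 nt made up 50.5% in NT-1, tags of 20 nt 91.1% in 3h-1, and tags of 21 nt 62.2% in 0.5h-1 and 56.4% in 24h-1. In the second time course the share of 20 nt lay between 44.4% and 50.3% in all 6 libraries. The remainder there was split between 21 nt, up to 42.3% in NT-2 and 41.2% in 6h-2, and 23 nt, up to 36.0% in 0.5h-2.

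Mean tag length of miR-34c 5p was 20.2 nt ± 0.363 (SD, n = 6) for the first time course. For the second it was 20.98 nt ± 0.325 (SD, n = 6), and tags were longer there in 6 of 6 time points, by 0.779 nt (two-sided p = 0.031 by exact permutation, the smallest this design allows). Adjusted over the 3 tests of this kind (length, ratio of miR-34b to miR-34c, and family share) it was 0.0937, above the threshold. These 3 tests and the fits between the time courses used the labels' numbering of the untreated libraries. They were not run with the untreated libraries exchanged. In that order the untreated pair would go the other way in length (19.84 nt in NT-1, 20.61 nt in NT-2). The share of 23 nt tags was 3.10% ± 4.58 (SD, n = 6) against 19.1% ± 13.9 (SD, n = 6), and that of 19 nt tags 18.9% ± 19.0 against 0.847% ± 0.435. RNA was size selected on gels for each library, and the part of that step in the lengths was not tested.

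**Figure D4:**
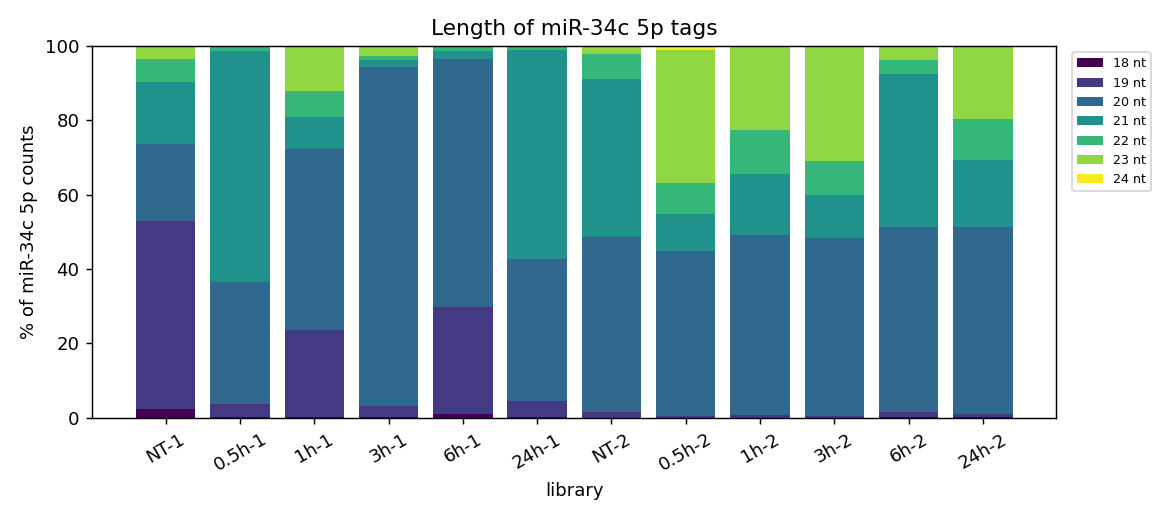
Share of each tag length from 18 to 24 nt among the miR-34c 5p counts of each library, first time course on the left and second on the right. Tags of 19 nt lead in NT-1 (50.5%), tags of 20 nt in 3h-1 (91.1%), and tags of 23 nt reach 36.0% in 0.5h-2.

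The counts of the rare members have to be read beside the abundance of miR-34c, since single-base variants of an abundant tag can equal the tag of a relative. Among the 60 possible single-base changes of the 20 nt tag of miR-34c 5p (129730 counts), the change G11A, which gives the 20 nt tag of miR-34b, had 509 counts. It ranked 20 of 60, and the median change had 332 counts, or 0.256% of the unchanged tag. At this length miR-34b 5p could thus not be separated from variants of miR-34c by its count.

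Tags of 23 nt separate them, because miR-34b then differs at 2 bases. The 3 sequences at issue are miR-34c, the single-base variant and miR-34b.
miR-34c 5p, 23 nt, unchanged: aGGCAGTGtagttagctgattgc
miR-34c 5p, 23 nt, with G11A: aGGCAGTGtaattagctgattgc
miR-34b 5p, 23 nt, with G11A and C23T: aGGCAGTGtaattagctgattgt
The unchanged tag had 63348 counts, the tag with G11A alone 30 (0.0474% of the unchanged tag) and miR-34b 161 (0.254%). The tag with C23T alone had 4184 counts. The tag with both differences was thus more frequent than the tag with G11A alone, in each of the 5 libraries in which miR-34b tags of 23 nt occurred. It had 5 counts against 0 in 1h-1, 104 against 24 in 0.5h-2, 15 against 1 in 1h-2, 12 against 2 in 3h-2 and 25 against 3 in 24h-2. In the other 7 libraries both were 0.

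**Figure D5:**
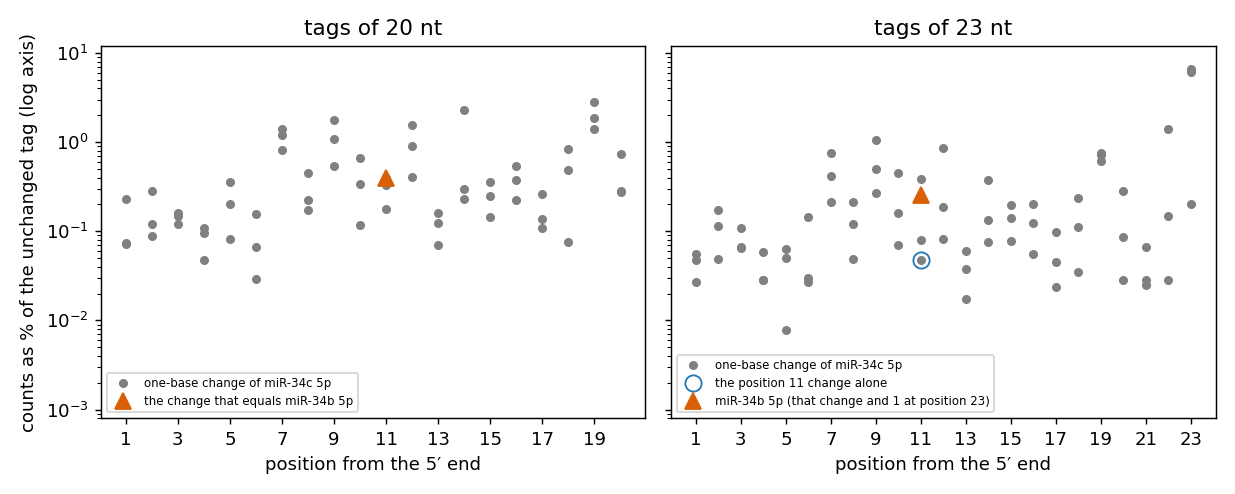
Counts of every single-base change of the miR-34c 5p tag of 20 nt (left) and 23 nt (right), as a percent of the unchanged tag on a log axis, by position from the 5′ end. At 20 nt the change that equals miR-34b (triangle) has 509 counts and lies within the range of the others, and at 23 nt miR-34b (triangle, 161 counts) lies above the change at position 11 alone (circle, 30 counts).

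The start of the tags also differed, with 89 of 1323 miR-34b counts beginning 1 base upstream against 71 of the 274507 counts of miR-34c, so the upstream tags of miR-34b outnumbered those of its more abundant neighbour.

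For miR-449b the first 18 bases, which differ from miR-34c by A10T, occurred in 430 counts. Only 2 of these went on as miR-449b over the whole tag. In 268 the tag continued as miR-34c, and 160 had another 3′ end. Counting by the first 18 bases would therefore have given miR-449b 430 counts in place of 2. The sequences compared are given because the single base decides the assignment.
miR-34c, first 18: aGGCAGTGtagttagctg
miR-449b, first 18: aGGCAGTGttgttagctg
By the same rule miR-34c 5p had 327109 counts, of which the exact matches made up 83.9%, with 81.5% the lowest (3h-2) and 93.0% the highest (0.5h-1).

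Per 100 counts of miR-34c 5p there were 0.743 counts of miR-34b 5p in NT-1, 0.622 in 0.5h-1, 0.736 in 1h-1, 0.351 in 3h-1, 0.907 in 6h-1 and 0.934 in 24h-1. In the second time course there were 0.639 in NT-2, 0.410 in 0.5h-2, 0.435 in 1h-2, 0.394 in 3h-2, 0.410 in 6h-2 and 0.455 in 24h-2. The log2 ratio was lower for the second time course in 5 of 6 time points and fell by 0.60 on average (two-sided p = 0.0625 by exact permutation, adjusted over the 3 tests 0.0937). The ratio within a library does not depend on the other miRNAs in it, and the miR-34b counts of 20 nt lie within the range of miR-34c variants, as above.

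The arms whose shares moved most like miR-34c 5p over the 12 libraries were ranked among 374 arms, after the mean of each time course was subtracted on the log2 scale. miR-34b 5p was the nearest of all (Pearson r = 0.953, Spearman rho 0.853, and r = 0.868 without 24h-2 and 0.5h-2). Within the first time course alone its r was 0.586, and within the second 0.991. Outside the family the nearest were miR-222 3p (r = 0.805), miR-485 5p (0.718), miR-93 5p (0.702), miR-1298 5p (0.700) and miR-138 5p (0.673). Without 24h-2 and 0.5h-2 these were 0.668, 0.725, 0.440, 0.495 and 0.597. Within the first time course they were 0.303, 0.565, −0.424, 0.319 and 0.595, and within the second 0.893, 0.780, 0.855, 0.885 and 0.772. Within the family miR-34b 3p ranked 22 (r = 0.538) and miR-34a 5p ranked 107 (r = 0.217). These are descriptions over libraries that share their denominators, and the miR-34b value also holds any reads of miR-34c counted as miR-34b.

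Since miR-34b, miR-34c and miR-449 are known from ciliated epithelia, miRNAs of the choroid plexus, which can be carried along with the hippocampus, were read beside them. The list held miR-204 and miR-211 and 5 miRNAs from introns of Htr2c, the serotonin receptor gene that is strongly expressed there. Of these 7, miR-211 had no read, 6 had reads and 5 could be tested. After ECS 0 of the 5 had an adjusted p under 0.05 (edgeR, TMM scaling), as was so for all 469 arms. Between the time courses 0 of the 5 had one, where 32.2% of all 469 arms did. Their summed share ranged from 0.0514% to 0.643% in the first time course and from 0.0128% to 0.384% in the second. It was 0.119% in 0.5h-2 and 0.384% in 24h-2, the libraries with the most miR-34c, and highest in NT-1 at 0.643%, where miR-34c 5p was at 0.391%. As a description over 12 libraries, the correlation of miR-34c 5p with miR-204 3p was r = 0.625. For miR-448 3p, the most abundant of the list, it was 0.299. It was 0.587 for miR-764 3p and 0.700 for miR-1298 5p, which was among the 5 nearest arms above. Without 24h-2 and 0.5h-2 these were, in the same sequence, 0.444, −0.197, 0.475 and 0.495. Within the first time course they were −0.081, −0.591, 0.234 and 0.319, and within the second 0.800, 0.592, 0.892 and 0.885. Of the epithelial miRNAs of the miR-200 family, miR-141 had no read, and their summed share did not exceed 0.0058% in any library. The part of such cells in the level of miR-34c was not tested.

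Other miRNAs linked to p53 (miR-192, miR-194, miR-215, miR-107, miR-143, miR-145, miR-15a and miR-16) were compared as a list of 8, all of which had reads and were tested. At the 5 time points after ECS 0 of the 8 had an adjusted p under 0.05 (edgeR), as was so for all 469 arms. Between the time courses 2 were higher in the second, miR-194 5p (log2 difference 3.09) and miR-16 5p (2.40), and 2 were lower, miR-143 3p (−2.59) and miR-145 3p (−2.02). Over all arms 19.8% were higher and 12.4% lower. The median of the list was −0.03 against 0.29 over all arms. With scaling to the total count 2 of the 8 were higher and 3 lower, where 10.4% and 24.1% of all arms were. Of the 8 neuronal miRNAs listed, 1 was higher and 2 lower in the second time course, of the 3 vascular ones 2 were lower, of the 3 blood ones 1 was lower, of the 3 epithelial ones tested 2 were higher, and of the 2 oligodendrocyte ones none was called. With scaling to the total count 1 neuronal miRNA was higher and 4 were lower, and 2 of the 3 vascular and 1 of the 3 blood ones were lower. That scaling also gave 1 epithelial one higher, 1 of the 5 tested choroid plexus miRNAs lower, and no call among the oligodendrocyte ones.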

How the data were processed

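Small RNA of, per the labels, about 18 to 24 nt was cloned from mouse hippocampus and sequenced. The authors removed reads without insert or 3′ adapter and trimmed the adapter (miR-Intess pipeline), and deposited the count of each distinct tag per library, with no normalization and no alignment. Tags were matched here over their full length to GENCODE M21 hairpins (GRCm38), and tags of several miRNAs were split equally. The 469 arms that reached 10 counts in 2 or more libraries were fitted with edgeR 4.0.16 (TMM, quasi-likelihood, Benjamini-Hochberg) in R 4.3.3, with DESeq2 1.42.0 as an alternative. The steps were tested on simulated data. The replicate numbers mark the 2 time courses sequenced by the study. Libraries of the same time course deviated together, with correlations of 0.301 to 0.790 over 15 pairs of time points, so the numbers pair the samples. All 66 pairs of libraries differed by more than counting noise. Length, ratio and family share were compared by exact permutation. A ratio of miR-449b to miR-34c was also planned, but miR-449b had no count in 10 of 12 libraries, so the adjustment was over 3 tests. Mature sequences and seeds came from RefSeq (GRCm38.p6) and from the deposited tags. The genes named were all members, the 5 arms most like miR-34c 5p and the marker and p53 lists. Members and lists were chosen with earlier results of these data known. Reads were amplified without molecular identifiers, so Wilson intervals and limits on 0 cover counting error only.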

Additional observations from a re-analysis of the deposited data

Results flagged for a closer look

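In a group of 6 libraries, 5 values lay apart from the rest of their time course (Dixon's test at the 95% level) out of 16 groups examined. For groups of like draws chance would give about 0.8. The groups here hold 6 different times with unlike depths and share libraries, so 0.8 does not measure chance for them. They were miR-34a 5p in NT-1 (0.0013% of the miRNA counts) and in 0.5h-2 (0.0010%), miR-34b 3p in 1h-1 (0.0019%) and in 24h-2 (0.0025%), and the count of miR-34b 5p per 100 of miR-34c 5p in NT-2 (0.639). The counts behind them were 14, 40, 26, 102 and 49. At 1 h the log2 ratio to the untreated library had opposite signs in the 2 time courses. It was −0.045 in the first and 1.41 in the second for miR-34c 5p, and −0.057 and 0.85 for miR-34b 5p. The negative values lay within counting error. For miR-34c 5p the Wilson 95% intervals of NT-1 (0.379% to 0.403%) and 1h-1 (0.369% to 0.389%) overlapped. Those of miR-34b 5p, with 31 and 38 counts, overlapped too. With the untreated libraries exchanged, both ratios of miR-34c 5p at 1 h were above 1 (2.12 and 1.21), and those of miR-34b 5p were 2.44 and 0.711. Each value rests on 1 library per time course, and the difference was not tested.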

How the results depend on the processing

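With the time course as a replicate block, edgeR again called 0 arms at each time after ECS, and in edgeR the block changed no call. DESeq2 called 1 arm at 0.5 h and 2 at 3 h, and DESeq2 with the block (added after seeing the data) 2, 5 and 3 arms at 0.5, 3 and 6 h. Without a filter on low counts 1 arm was called at 3 h. No member was among them. Leaving out any library left 0 calls. Between the time courses 151 calls became 85 with at least 10 counts in every library, for which fewer arms are tested, and 92 to 157 without 1 library. The mean length difference was 0.707 to 0.846 nt without 1 time point and 0.766 nt as a median (exact permutation p = 0.125), where the design cannot reach 0.05. The family share difference of 0.385 became −0.053 as a median and −0.079 on the log2 scale, and 0.039 to 0.559 without 1 time point, the former without 0.5 h. The cause was not tested. Of single values, miR-34c 5p at 6 h ranged from −0.28 to 0.19 without 1 library, the latter without NT-1. Between the time courses miR-34c 5p was −0.10 and miR-34b 3p −0.26 with scaling to the total count, where TMM shifts all arms by a median of 0.61, and miR-34b 3p was −0.36 without 24h-1, −0.03 without 6h-2, −0.51 without 24h-2 and at most 0.67 without any 1 library. miR-34b 5p, close to 0, was −0.63 with that scaling, 0.021 without a filter, 0.53 without the time point as covariate and between −0.37 and 0.23 without 1 library. It was 0.11 without NT-1, 0.04 without 3h-1, 0.23 without 6h-1, 0.14 without NT-2, 0.05 without 3h-2 and 0.11 without 6h-2. miR-34a 3p passed the threshold in 6 alternatives, at 2.83 to 3.93 on the log2 scale, and not in 12, at 2.25 to 3.26. A test of the ratio of miR-449b to miR-34c was not run because its counts were 0 in 10 of 12 libraries. The arms of miR-449 had too few counts to be tested.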
